A study of Saccharomyces cerevisiae with 17 samples.

Results

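The data described here set budding yeast held at a constant 12 °C (SS_12) against the same yeast held at a constant 30 °C (SS_30). The arrays were taken by their titles, 2 for each temperature, which is 4 of the 17 arrays of the series. All cells were of 1 strain, Saccharomyces cerevisiae CEN.PK113-7D (MATa MAL2-8C SUC2), a MATa haploid whose genotype names the maltose activator gene MAL2-8C and the invertase gene SUC2. They grew on glucose as the limiting carbon source, without oxygen under nitrogen gas, at pH 5.0 and a dilution rate of 0.03 per h, in both groups alike. The 2 arrays of a temperature came from independent cultures, sampled once biomass, metabolites and carbon dioxide production had settled. The other 13 arrays came from cultures in a 24-h temperature cycle between 30 and 12 °C (DTC), and they enter here only through the shared estimate of the spread and through the tests of a difference between constant and cycling cultures.

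In a chemostat the inflow of fresh medium fixes the growth rate at steady state, so that the cultures at 12 and 30 °C were held to an equal growth rate. Cold slows enzymes and transporters, stiffens membranes and stabilises structures in RNA, and yeast shifted abruptly to the cold is known to induce cell wall mannoproteins of the TIP1 and TIR family, the fatty acid desaturase OLE1, ribosome assembly genes and, later, trehalose and heat shock genes. In a glucose-limited culture the residual sugar adjusts to what uptake needs, and many transporters and stress genes of yeast respond to the concentration of sugar and other nutrients as well as to temperature. An array measures the RNA of all cells together, so that fewer cells of a type and less RNA per cell cannot be told apart.

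Each Affymetrix array gave a signal per probe set in arbitrary units, and the 9335 probe sets yielded values for 5656 genes. Between 5305 and 5395 of them lay above background, a signal of 10.5, on each of the 4 arrays. The arrays of 12 °C correlated at 0.973 across genes and those of 30 °C at 0.978, against 0.901 to 0.915 between the temperatures. The median absolute log2 difference between arrays was 0.30 within 12 °C and 0.255 within 30 °C, against 0.488 to 0.558 between the temperatures. Changes are log2 differences, 12 °C minus 30 °C, with the standard error from limma (n = 2 arrays each), and a gene is said to have risen or fallen where its Benjamini-Hochberg adjusted p over all genes was under 0.05. Such a gene also passed in all 13 alternative settings, among them leaving out each array in turn, unless the text gives another number, and the changes then given as without an array are those that no longer passed. Counts of a list without 1 array are given in the order without SS_12 replicate 1, SS_12 replicate 2, SS_30 replicate 1 and SS_30 replicate 2.

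Some of the genes chosen as markers are set beside the strain and growth labels. Since other markers are left out, they are no full check of these labels. Of the other a-cell markers, STE6, BAR1 and AGA2 are not given here. ASG7, given with the mating genes, was dimmer than those that follow, and at 30 °C about as dim as the alpha-cell gene STE3. The a-factor genes MFA1 (signals of 10398 and 6960.9 at 12 °C, against 4886.5 and 6297 at 30 °C) and MFA2 (9376.7 and 6197.1 at 12 °C, against 4082.3 and 4978.1 at 30 °C) and the a-cell receptor gene STE2 (1067.1 and 814.6 at 12 °C, against 516.5 and 587.4 at 30 °C) were bright on every array. Of the genes defining alpha cells, STE3 stayed between 59.4 and 89.2 and SAG1 between 105.6 and 142.2 on the 4 arrays, without passing the test, whereas the alpha-factor gene MF(ALPHA)1 was bright at 12 °C, as described with the mating genes. Of the genes that mark growth without oxygen, the bright DAN1 and TIR1 are given here, and the series has no culture with oxygen to compare. The markers TIR3, TIR4 and AUS1, given further on, were lower at 12 °C without passing, and ANB1, AAC3, HEM13 and COX5B are not given. Over 23 anaerobic and hypoxic genes 1 rose and 3 fell, with a median change of -0.59. DAN1, a cell wall protein made without oxygen, gave 5203.7 and 7570.4 at 12 °C, against 3847 and 4558.9 at 30 °C, and TIR1 gave 10219.7 and 10372 at 12 °C, against 6108.1 and 7085.9 at 30 °C, with neither passing the test.

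At 12 °C 564 of the 5656 genes were higher than at 30 °C and 692 were lower, together 22.2% of all genes. The higher genes made up 9.97% and the lower genes 12.2%, and these shares are the yardstick for the gene lists that follow. With the values as deposited and floored at 1, large falls outnumbered large rises, with 523 lower genes and 342 higher genes past 2-fold, and 149 lower and 41 higher genes past 4-fold. Sizes among dim genes are uncertain, with 98 genes under background at 12 °C only and 47 at 30 °C only. In the dimmest of 10 equal bands of genes ranked by signal, 40 were called higher and 82 lower, against 52 and 49 after quantile normalization. Over all genes that normalization gave 545 higher and 578 lower. All 1256 called genes had no overlap between the arrays of both temperatures, as had 3647 genes in all. With each array centred on its median, which shifted the median change of all genes to 0.11 from -0.01, the split was 730 higher and 567 lower. Without 1 array 215, 374, 241 and 286 genes were called higher and 350, 580, 361 and 385 lower, the lone array left being taken to vary like the other groups.

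**Figure D1:**
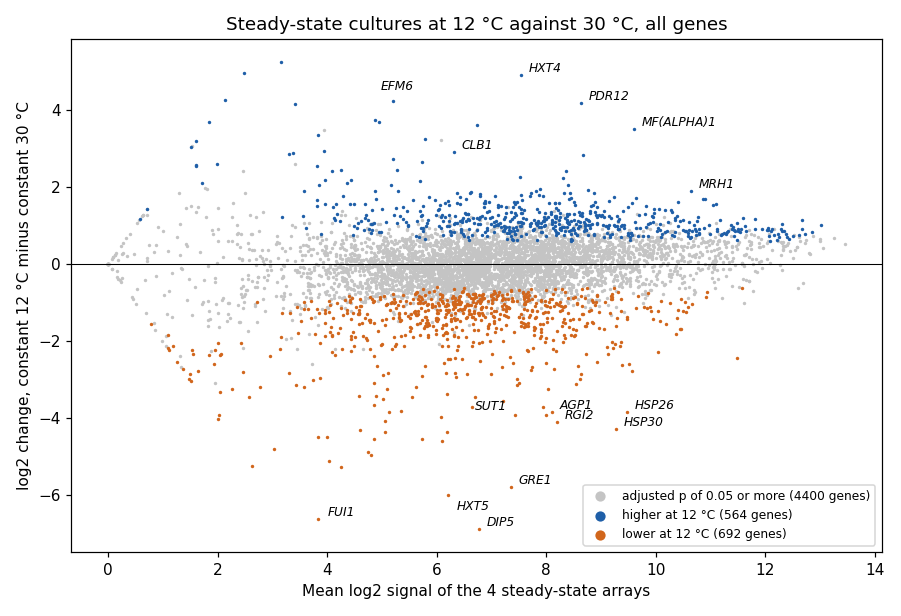
Each point is 1 gene, with its mean log2 signal over the 4 arrays on the horizontal axis and its log2 change, 12 °C minus 30 °C, on the vertical axis. Blue points are the 564 higher and orange points the 692 lower genes, and the lower genes reach -6.86 (DIP5), while HXT4 at 4.89 has the largest rise among protein-coding genes.

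Transporter genes stood among the largest changes in both directions, with a hexose carrier on each side, an exporter of organic acids on the higher side and carriers of amino acids and uridine on the lower side. HXT4, a hexose transporter of intermediate affinity, gave signals of 1239.8 and 836.5 at 12 °C, against 33.9 and 34.7 at 30 °C. PDR12, the plasma membrane pump for weak organic acids, gave 1804.3 and 1610 at 12 °C, against 103.8 and 84.6 at 30 °C. AZR1, a transporter linked to resistance to azoles and acetic acid, gave 125.5 and 96.2 at 12 °C, against 7.4 and 10 at 30 °C. In each case both arrays at 12 °C lay far above both at 30 °C. HXT4 rose 29.7-fold (log2 change 4.89 ± 0.39, limma adjusted p = 7.94e-06), PDR12 rose 18.2-fold (4.18 ± 0.29, adjusted p = 2.94e-06), and AZR1, both of whose arrays at 30 °C lay under background, rose at least 10.5-fold (adjusted p = 5.75e-05).

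The remaining large rises spanned several functions. EFM6, a methyltransferase of translation elongation factor 1A, gave 164.3 and 153.9 at 12 °C, against 5.6 and 12.7 at 30 °C, a change of 4.24 ± 0.32 whose size is uncertain because the mean at 30 °C lay under background (3.69 with a floor of 12). CLB1, a B-type cyclin of mitosis, gave 243.8 and 193.8 at 12 °C, against 32 and 26.3 at 30 °C and rose 7.49-fold (2.91 ± 0.30, adjusted p = 6.46e-05). YGR035C, a gene of unknown function, gave 194.4 and 148.6 at 12 °C, against 13.8 and 23 at 30 °C (3.25 ± 0.35). None of these overlapped between temperatures. Among genes under background on both arrays at 30 °C, the karyogamy gene PRM3 was at least 10.2-fold higher, SPR2, known from sporulation, at least 4.33-fold, and the isomaltase gene IMA5 at least 4.06-fold. YCR099C was at least 2.69-fold higher and passed in 12 of 12 alternatives that could test it, the filter on background having removed it. The small open reading frame YMR230W-A was at least 1.24-fold higher by its brightest probe set, but it passed in 11 of 12 alternatives and another of its 4 probe sets was called lower, so its direction is uncertain.

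On the lower side DIP5, the permease for glutamate and aspartate, gave 7.6 and 13.4 at 12 °C, against 1524.6 and 899.7 at 30 °C. FUI1, the uridine permease, gave 1.4 and 1.5 at 12 °C, against 140.6 and 143.1 at 30 °C. The hexose transporter gene HXT5, known from slow growth, gave 11.2 and 7.7 at 12 °C, against 725.2 and 472.3 at 30 °C. Far below at 12 °C as well, the stress-induced hydrophilin gene GRE1 gave 21.4 and 22.7 at 12 °C, against 1072.3 and 1367.3 at 30 °C. For all 4, both arrays at 30 °C lay far above both at 12 °C. Their log2 changes were -6.86 ± 0.46 for DIP5 (adjusted p = 2.94e-06), -5.98 ± 0.33 for HXT5 (adjusted p = 5.07e-07) and -5.78 ± 0.27 for GRE1 (adjusted p = 1.83e-07), while FUI1 was at least 13.6-fold lower (adjusted p = 7.8e-09). The means of DIP5 and HXT5 at 12 °C lay under background, and with a floor of 12 their changes were -6.53 and -5.61.

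The next largest falls added 2 amino acid permeases (BAP3 and MUP1), the SUR7-family gene FMP45, the mannosyltransferase gene KTR2 and regulators or genes of poorly known function. FMP45 gave 13.8 and 14 at 12 °C, against 301.2 and 372.9 at 30 °C (-4.59 ± 0.31, adjusted p = 2.94e-06). KTR2, which extends mannose chains on cell wall proteins, gave 2.4 and 12.6 at 12 °C, against 108.8 and 107.7 at 30 °C (-4.30 ± 0.57, -3.14 with a floor of 12), so that the arrays at 12 °C differed from each other across background while both lay well under those at 30 °C. HMS2, a transcription factor gene resembling heat shock factor, was at least 9.25-fold lower, since it gave 1.9 and 4.1 at 12 °C, against 78.7 and 119 at 30 °C. YAR068W was at least 4.08-fold lower, the aldehyde reductase gene YKL107W at least 6.43-fold and YOR338W at least 7.25-fold, all 3 under background on both arrays at 12 °C.

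**Figure D2:**
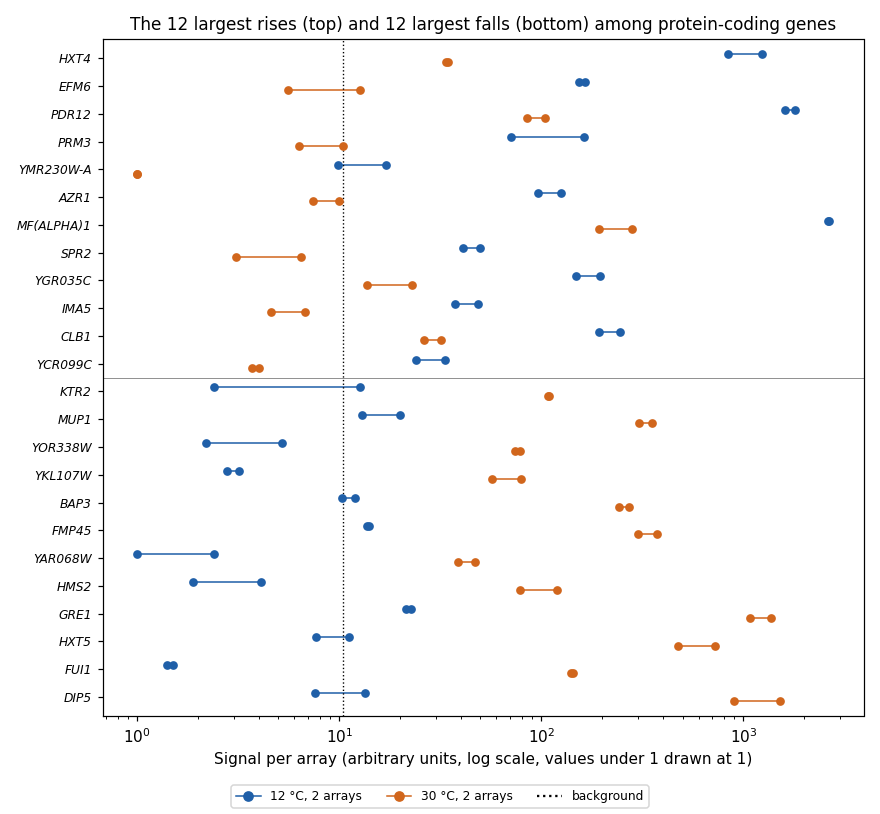
Signal of each array on a log axis for the 12 protein-coding genes with the largest rises (upper block) and the 12 with the largest falls (lower block) at 12 °C; blue points are the arrays at 12 °C, orange points those at 30 °C, and the dotted line is the background signal of 10.5. The points of both temperatures are apart in every row because the choice of genes required it, and many of the dimmer groups lie at or under background.

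Genes for amino acid and peptide uptake fell in part, and the other permease genes did not pass the test. Of 24 permease genes measured, 9 fell and none rose, against 12.2% of all genes lower. The list's median change was -0.46, against -0.01 over all genes, and 8, 9, 8 and 8 fell without 1 array. Besides DIP5, BAP3 for branched-chain amino acids gave 10.3 and 12 at 12 °C, against 272.2 and 242.1 at 30 °C (-4.53 ± 0.33, adjusted p = 4.91e-06). The high-affinity methionine permease gene MUP1 gave 20.1 and 13 at 12 °C, against 353.7 and 305.3 at 30 °C (-4.35 ± 0.37, adjusted p = 1.63e-05). The peptide transporter gene OPT2 gave 27.6 and 10.6 at 12 °C, against 357.7 and 197 at 30 °C (-3.96 ± 0.55, adjusted p = 5.43e-04). For each of these the arrays at 12 °C were near background and those at 30 °C were far above it.

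The remaining 5 permease genes that fell were singled out after their values were seen. The general permease gene AGP1 gave 66.1 and 80.1 at 12 °C, against 1111.4 and 971.4 at 30 °C and fell by 3.84 on the log2 scale (adjusted p = 3.48e-06). The di- and tripeptide transporter PTR2 gave 55.9 and 77 at 12 °C, against 1290.3 and 767 at 30 °C (-3.92 ± 0.30). The glutamine permease GNP1 gave 25.6 and 29.5 at 12 °C, against 436.5 and 299 at 30 °C (-3.72 ± 0.39). AGP1, BAP3, DIP5, GNP1 and PTR2 are known as genes that the plasma membrane sensor SSY1 switches on when amino acids are outside the cell. BAP2 (-0.59) and TAT1 (0.05), which are known to answer to the same sensor, did not pass, nor did SSY1 itself (-0.67). TAT2, which takes up tryptophan and tyrosine, fell by 1.70 (51.2 and 62.6 at 12 °C, against 203.7 and 167.1 at 30 °C), and MMP1, for S-methylmethionine, fell by 1.26 and passed in 9 of 13 alternatives (its changes that did not pass were -1.18 without SS_12 replicate 1, -1.34 without SS_12 replicate 2, -1.25 without SS_30 replicate 1, -1.27 without SS_30 replicate 2).

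The other 15 permease genes did not pass the test and their changes ran between -0.84 for the proline permease PUT4 and 0.67 for UGA4. The general amino acid permease GAP1, which responds to the nitrogen supply, gave 221.1 and 316.3 at 12 °C, against 257 and 190.6 at 30 °C (0.26 ± 0.29, adjusted p = 0.573). The permeases for basic amino acids CAN1 (0.41) and LYP1 (-0.06) and the histidine permease HIP1 (0.25) likewise did not pass. Arrays of both temperatures overlapped for GAP1, CAN1, HIP1 and LYP1.

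**Figure D3:**
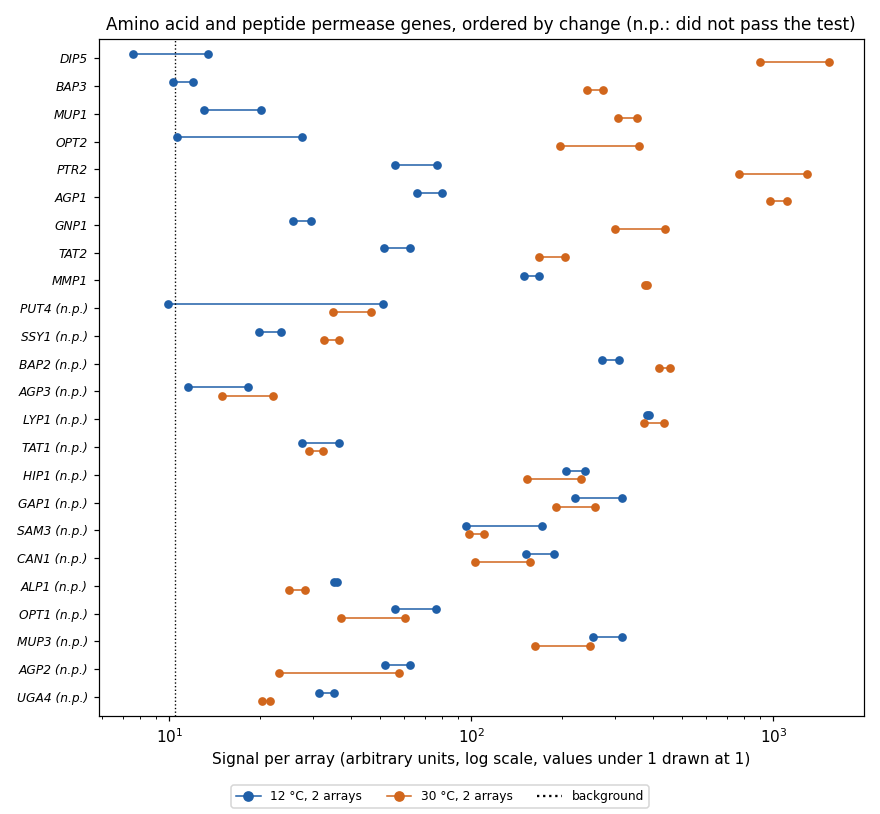
Signal of each array on a log axis for the 24 amino acid and peptide permease genes, ordered by log2 change; blue points are the 2 arrays at 12 °C and orange points the 2 at 30 °C, and n.p. marks genes that did not pass. The 9 genes at the top stand well to the left at 12 °C, while the 15 below lie close together or overlap.

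Genes that use amino acids as nitrogen sources fell in part. Of 24 genes subject to nitrogen catabolite repression, 6 fell and 1 rose (median change -0.65; 4, 6, 5 and 4 fell without 1 array). PUT1, the proline oxidase, gave 25.2 and 14.9 at 12 °C, against 156.4 and 136.1 at 30 °C (-2.91 ± 0.28, adjusted p = 3.53e-05). Arginase, encoded by CAR1, gave 40.8 and 81.2 at 12 °C, against 271.8 and 311.3 at 30 °C (-2.34 ± 0.29), and the ornithine aminotransferase gene CAR2 gave 94.8 and 177.9 at 12 °C, against 542.8 and 666.9 at 30 °C (-2.21 ± 0.32), so that both of these enzymes of arginine breakdown fell. The activator gene GAT1 also fell (-1.70 ± 0.29). The ammonium permease genes MEP1 (-0.77) and MEP2 (-0.61) and the glutamine synthetase gene GLN1 (-0.15) did not pass. The allantoinase gene DAL1 rose (74.1 and 95 at 12 °C, against 24.2 and 42.6 at 30 °C, 1.39 ± 0.25) and passed in 12 of 13 alternatives.

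Hexose transporter genes changed in both directions. Of 11 hexose transporter genes 3 rose and 2 fell (median 0.48). The falls were HXT5, given above, and HXT10, which gave 3.3 and 3.5 at 12 °C, against 20.1 and 15.7 at 30 °C, was at least 1.70-fold lower and passed in 7 of 12 alternatives. Next to HXT4, the high-affinity transporter gene HXT2 gave 637.4 and 811.8 at 12 °C, against 273.1 and 282 at 30 °C and rose 2.59-fold (1.37 ± 0.22, adjusted p = 0.00145). HXT3, a low-affinity carrier, gave 604.4 and 611.1 at 12 °C, against 306.9 and 415.4 at 30 °C (0.77 ± 0.22) and passed in 9 of 13 alternatives, with 0.78 without SS_12 replicate 1, 0.76 without SS_12 replicate 2, 0.55 without SS_30 replicate 1. HXT6 and HXT7, near-identical high-affinity carriers that the probes may not separate, were the brightest of the family. HXT6 gave 6817.3 and 6322.8 at 12 °C, against 4430.9 and 4560.7 at 30 °C (0.55) and HXT7 gave 6438.7 and 5854.7 at 12 °C, against 4388.4 and 4413.8 at 30 °C (0.48), and neither passed. HXT1, the carrier for abundant glucose, did not pass either (-0.08).

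Regulators of glucose-responsive genes moved in both directions, while the sensors of glucose did not pass. STD1, which with MTH1 keeps HXT genes repressed when sugar is short, rose 3.67-fold (186.9 and 189.7 at 12 °C, against 52.5 and 50.1 at 30 °C, 1.88 ± 0.23, adjusted p = 2.08e-04). Its paralog MTH1 gave 358.2 and 373.4 at 12 °C, against 634.1 and 654.8 at 30 °C and fell by 0.82, passing in 10 of 13 alternatives (-0.79 without SS_12 replicate 1, -0.79 without SS_30 replicate 2). The glucose repressor gene MIG1 gave 62.7 and 93.3 at 12 °C, against 218.4 and 268.5 at 30 °C (-1.66 ± 0.24, adjusted p = 7.04e-04), while its paralog MIG2, under background on both arrays at 30 °C, was at least 2.78-fold higher and passed in 12 of 13 alternatives. The sensors SNF3 (-0.42) and RGT2 (-0.45) and the kinase gene SNF1 (-0.22) did not pass. Thus in both paralog pairs, MTH1 with STD1 and MIG1 with MIG2, one member was higher and the other lower at 12 °C.

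Few genes of glycolysis changed, while minor paralogs of the pentose phosphate pathway fell. Of 29 genes of glycolysis and ethanol formation, 3 rose and 2 fell, 2 and 3 after quantile normalization, and 2 and 2 in the fit of only the 4 steady-state arrays. The largest rise was that of HXK2, the main hexokinase during growth on glucose, with 2153.7 and 2435.7 at 12 °C, against 1054.6 and 1081.9 at 30 °C (1.10 ± 0.21, adjusted p = 0.00363). The abundant genes ENO2 (0.44), PDC1 (0.45) and ADH1 (0.41) did not pass. In the pentose phosphate pathway, 5 of 13 genes fell and 2 rose (4, 6, 5 and 4 fell without 1 array). NQM1, a paralog of the main transaldolase, gave 115.6 and 88.5 at 12 °C, against 479.2 and 437.9 at 30 °C (-2.18 ± 0.24). TKL2, a paralog of the main transketolase, gave 34.1 and 36.6 at 12 °C, against 242.3 and 97.1 at 30 °C (-2.12 ± 0.42). SOL4 (-1.58 ± 0.29) and GND2 (-1.53 ± 0.28), minor forms of the enzymes of the oxidative branch, fell too. The main isoforms TAL1 (0.17) and TKL1 (0.52) did not pass, and GND1 (0.68 ± 0.22) rose but passed in 6 of 13 alternatives (0.42 after quantile normalization, and 0.73 without SS_12 replicate 1, 0.62 without SS_12 replicate 2, 0.59 without SS_30 replicate 1, 0.77 without SS_30 replicate 2).

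Genes for using non-sugar carbon fell in part. Of 24 genes of gluconeogenesis, the glyoxylate cycle and their activators, 8 fell and 1 rose (3, 8, 5 and 6 fell without 1 array). PCK1, the committing enzyme of gluconeogenesis, gave 116.7 and 168.2 at 12 °C, against 1242.2 and 986.5 at 30 °C (-2.98 ± 0.39), and its activator gene CAT8 gave 9 and 15.9 at 12 °C, against 94.2 and 60.3 at 30 °C (-2.66 ± 0.35). FBP1, the other enzyme specific to gluconeogenesis, gave 61.3 and 86.1 at 12 °C, against 32.1 and 49.7 at 30 °C (0.86 ± 0.27), which is the opposite direction, and passed in 9 of 13 alternatives (1.11 without SS_12 replicate 1, 0.62 without SS_12 replicate 2, 0.55 without SS_30 replicate 1). The glyoxylate enzymes ICL1 (0.12) and MLS1 (-0.52) did not pass. None of 16 genes of the tricarboxylic acid cycle passed in either direction, with 9.97% higher and 12.2% lower among all genes, and 3 of 36 genes of the respiratory chain and ATP synthase fell. The largest of these falls was that of NDE2, a mitochondrial NADH dehydrogenase facing the cytosol (32 and 46.5 at 12 °C, against 205.1 and 156.4 at 30 °C, -2.22 ± 0.28).

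Genes known from the response to weak acids did not move as a block. Of 16 genes, 4 rose and 5 fell. MRH1, a membrane protein related to HSP30, gave 3193.5 and 2992.7 at 12 °C, against 884.7 and 770 at 30 °C and rose 3.75-fold (1.91 ± 0.24, adjusted p = 2.38e-04), whereas HSP30 gave 143 and 139.7 at 12 °C, against 2731.2 and 2739.8 at 30 °C and fell by 4.27. Those 2 relatives therefore stood on opposite sides, each without overlap between temperatures. The cell wall gene SPI1 (258.8 and 338.5 at 12 °C, against 1749.6 and 1819.2 at 30 °C, -2.59 ± 0.34), the ammonium exporter gene ATO3 (63.3 and 87.6 at 12 °C, against 238.7 and 365.7 at 30 °C, -1.99 ± 0.28) and the polyamine exporter gene TPO2 (36.2 and 53.2 at 12 °C, against 164.9 and 158.9 at 30 °C, -1.88 ± 0.27) fell. WAR1 (0.37), the activator of PDR12, and HAA1 (-0.31), the activator of SPI1 and TPO2, did not pass.

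Other exporters were split in the same way. Of 18 genes of multidrug resistance 3 rose and 4 fell. The polyamine exporter genes TPO4 (549.3 and 586.3 at 12 °C, against 239 and 224.6 at 30 °C, 1.29 ± 0.22) and TPO1 (897.2 and 1029.3 at 12 °C, against 433.5 and 428.6 at 30 °C, 1.16 ± 0.22) rose. PDR5, the main drug efflux pump, gave 100.3 and 158.1 at 12 °C, against 535.4 and 393.4 at 30 °C (-1.87 ± 0.28, adjusted p = 9.16e-04), and the regulator gene YRR1 fell as well (-1.46 ± 0.26). PDR1 (0.06) and PDR3 (0.13), the activators of PDR5, did not pass.

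Genes for iron uptake fell in part. Of 29 iron genes 10 fell and 2 rose (6, 9, 6 and 7 fell without 1 array). FET3, the oxidase of high-affinity iron uptake, gave 6 and 11.1 at 12 °C, against 103.9 and 103.4 at 30 °C (-3.67 ± 0.29), and since its mean at 12 °C was under background the size is uncertain (-3.11 with a floor of 12). FTR1, the permease that works with it, gave 80.8 and 87.9 at 12 °C, against 449.1 and 645.5 at 30 °C (-2.68 ± 0.23). The oxidase and its permease therefore fell together, whereas the ferric reductase gene FRE2, which acts before them, rose (51.9 and 74 at 12 °C, against 30.2 and 22.6 at 30 °C, 1.25 ± 0.29) and passed in 10 of 13 alternatives (0.99 without SS_12 replicate 2, 1.04 without SS_30 replicate 2). The iron-binding mannoprotein gene FIT2 gave 49.4 and 67.8 at 12 °C, against 366.6 and 368.3 at 30 °C (-2.67 ± 0.51). TIS11, which degrades messages of iron-using proteins, gave 25.8 and 26.4 at 12 °C, against 72.5 and 94.6 at 30 °C (-1.67 ± 0.22). FET4, a low-affinity carrier of iron and other metals, rose (333.9 and 294.6 at 12 °C, against 112.6 and 124.5 at 30 °C, 1.41 ± 0.28, adjusted p = 0.00487). So high-affinity and low-affinity iron carriers had opposite directions.

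Copper uptake genes were higher in the cold, with 2 rises and 3 falls among 10 copper genes. CTR3 gave 820.8 and 696.1 at 12 °C, against 144.1 and 138.5 at 30 °C (2.42 ± 0.28, adjusted p = 1.53e-04). CTR1 gave 273.3 and 341.9 at 12 °C, against 118.8 and 107.7 at 30 °C (1.43 ± 0.24, adjusted p = 0.00183), both high-affinity copper transporters. On the storage side, the metallothionein gene CRS5 gave 261 and 236.5 at 12 °C, against 1237.2 and 1279.6 at 30 °C (-2.34 ± 0.19, adjusted p = 9.46e-06). CUP2, the activator of metallothionein genes, gave 66.6 and 57.3 at 12 °C, against 148.5 and 172.9 at 30 °C (-1.38 ± 0.20). No arrays overlapped for these 4 genes. The third gene that fell was the copper chaperone gene ATX1 (-0.81 ± 0.25), which passed in 8 of 13 alternatives (-0.51 without SS_12 replicate 2, -0.90 without SS_30 replicate 1, -0.73 without SS_30 replicate 2). MAC1, the activator of CTR1 and CTR3, did not pass (0.15).

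Of 23 phosphate genes 5 fell and none rose. The high-affinity phosphate transporter PHO84 gave 5.9 and 20.7 at 12 °C, against 108.1 and 101.8 at 30 °C (-3.25 ± 0.45, adjusted p = 4.95e-04), with 1 of the arrays at 12 °C under background. GIT1, a carrier of glycerophosphoinositol, was at least 3.90-fold lower. The falls also include PHO4 (-1.19), which passed in 10 of 13 alternatives (-0.91 without SS_12 replicate 1, -0.79 without SS_30 replicate 2). PHO2 (-3.91) fell too, but its change was -0.39 with a floor of 12, where it did not pass and 4 phosphate genes fell. The acid phosphatase gene PHO5 (0.00), the regulator PHO81 (0.25) and the polyphosphate genes VTC1 (0.11) and VTC4 (0.06) did not pass. Of 22 sulfate and methionine genes 7 rose and 3 fell, 4 and 4 after quantile normalization, and 3, 5, 3 and 3 rose without 1 array. STR3, which makes homocysteine from cystathionine, rose (464.6 and 514.3 at 12 °C, against 201.1 and 225.8 at 30 °C, 1.20 ± 0.25). The S-adenosylmethionine synthetase genes SAM2 (2101 and 1927.8 at 12 °C, against 938.2 and 661.1 at 30 °C, 1.35 ± 0.28) and SAM1 (196.5 and 354.2 at 12 °C, against 536.4 and 551.9 at 30 °C, -1.04 ± 0.25) had opposite directions. SAM2 passed in 12 of 13 alternatives (1.10 without SS_30 replicate 2) and SAM1 in 9 of 13 (-0.62 without SS_12 replicate 1, -1.06 without SS_30 replicate 1, -1.02 without SS_30 replicate 2).

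Genes of the heat shock response fell in part and none rose. Of 30 chaperone genes 14 fell (median change -0.91), 15 after quantile normalization, and 11, 13, 10 and 12 without 1 array. The inducible Hsp70 gene SSA3 gave 85.8 and 85 at 12 °C, against 787.6 and 833.5 at 30 °C (-3.25 ± 0.31, adjusted p = 3.45e-05), and BTN2, which gathers misfolded proteins, gave 146.7 and 119.5 at 12 °C, against 644.6 and 608.5 at 30 °C (-2.24 ± 0.28). The main Hsp70 genes SSA1 (0.30) and SSA2 (0.60) did not pass.

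In the Hsp90 machine the inducible gene fell and the constitutive one did not pass. HSP82, the inducible Hsp90, gave 828.2 and 821.1 at 12 °C, against 2330.2 and 2043.2 at 30 °C (-1.40 ± 0.23, adjusted p = 0.0016). Its constitutive paralog HSC82 gave 3573.6 and 4464.7 at 12 °C, against 4043.6 and 3577 at 30 °C (0.07 ± 0.21, adjusted p = 0.848). AHA1, which speeds up the ATPase of Hsp90, gave 249.5 and 314.2 at 12 °C, against 1211.8 and 1302.9 at 30 °C (-2.17 ± 0.20), and the related HCH1 gave 210.1 and 163.5 at 12 °C, against 616.5 and 707.4 at 30 °C (-1.83 ± 0.22). The Hsp90 helper genes CPR6 (-2.15 ± 0.21) and STI1 (-1.20 ± 0.20) fell as well, and SBA1 (0.68) did not pass. These helpers and HSP82 were singled out after their values were seen. HSF1, the heat shock factor itself, did not pass (-0.83). Of the cytosolic chaperonin and its partner prefoldin, 2 of 14 genes rose, the prefoldin genes GIM3 (589.1 and 458.6 at 12 °C, against 166.7 and 179.8 at 30 °C, 1.59 ± 0.23) and GIM5 (0.74 ± 0.22, passing in 8 of 13 alternatives, with 0.64 without SS_12 replicate 1, 0.83 without SS_12 replicate 2, 0.72 without SS_30 replicate 1, 0.75 without SS_30 replicate 2).

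Targets of the general stress factors Msn2 and Msn4 gave 15 falls and 3 rises among 36 genes (median -0.78), with 13, 16, 13 and 13 falls without 1 array. RGI2, linked to energy metabolism in respiratory growth, gave 75.3 and 66.3 at 12 °C, against 1242.7 and 1168.9 at 30 °C (-4.09 ± 0.22, adjusted p = 4.71e-07). The hydrophilin gene SIP18, singled out after its value was seen, gave 62.7 and 74.9 at 12 °C, against 880.7 and 897.2 at 30 °C (-3.70 ± 0.20). The cytosolic catalase gene CTT1 gave 10.4 and 7.8 at 12 °C, against 28 and 33.5 at 30 °C, under background on both arrays at 12 °C, and was at least 2.93-fold lower. The gene of the factor itself, MSN2, rose (245.4 and 352.5 at 12 °C, against 179 and 121.9 at 30 °C, 0.99 ± 0.30) and passed in 10 of 13 alternatives (0.73 without SS_12 replicate 2, 0.72 without SS_30 replicate 2). The rises of YGP1 (0.91), HOR7 (0.85) and STF2 (0.81) passed in 11 of 13, 7 of 13 and 8 of 13 alternatives and were among other settings lost after quantile normalization (0.62, 0.40 and 0.46), which left 0 rises and 18 falls. Other well-known targets did not pass, such as the membrane-protecting HSP12 (8316.2 and 7391.8 at 12 °C, against 4873 and 5557.3 at 30 °C, 0.59 ± 0.24), DDR2 (-0.16) and PGM2 (-0.43).

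None of 7 trehalose genes passed, and TPS1, which makes trehalose phosphate, gave 869.1 and 1115.1 at 12 °C, against 1030.8 and 1021.8 at 30 °C. Of 17 glycogen genes 4 rose and none fell, but 1, 1, 4 and 0 rose without 1 array. GSY1, a glycogen synthase, gave 376.4 and 366.9 at 12 °C, against 176.3 and 109.1 at 30 °C (1.42 ± 0.29) and passed in 12 of 13 alternatives (1.08 without SS_30 replicate 2). Its arrays at 30 °C lay further apart than those at 12 °C.

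Genes that build ribosomes rose in part, and mainly those of the large subunit. Of its assembly factors 31.9% rose, against 9.97% of all genes. The share was 16.7% for RNA polymerases I and III and 14.0% for the small subunit processome, nearer that of all genes. Of 69 assembly factors of the large subunit 22 rose and none fell (median 0.60), with 7, 13, 5 and 13 rises without 1 array. Of 57 genes of the small subunit processome 8 rose and 1 fell (4, 4, 3 and 5 rises without 1 array), and of 36 genes of RNA polymerases I and III 6 rose and none fell (1, 2, 3 and 2 without 1 array). DBP2, an RNA helicase, gave 598.5 and 668.1 at 12 °C, against 194.4 and 222 at 30 °C (1.61 ± 0.20, adjusted p = 2.59e-04). UTP23, needed for early cleavage of the ribosomal RNA precursor, gave 414.1 and 458 at 12 °C, against 168.4 and 218.4 at 30 °C (1.18 ± 0.21). RPC11, a subunit of RNA polymerase III, gave 487.2 and 332.8 at 12 °C, against 113 and 110.6 at 30 °C (1.85 ± 0.32). HMT1, the main arginine methyltransferase of RNA-binding proteins, gave 728.4 and 594.5 at 12 °C, against 166.9 and 201.2 at 30 °C and rose 3.59-fold (1.84 ± 0.28, adjusted p = 8.96e-04). It comes from another list, protein methyltransferases of translation, of which 2 of 16 rose and 2 fell. That is 12.5% each way, against 9.97% higher and 12.2% lower among all genes. The falls were EFM3 (-1.41) and EFM5 (-1.0), each passing in 11 of 13 alternatives. ESF1, a gene of the small subunit processome, fell, with 83 and 57.7 at 12 °C, against 428.4 and 396.7 at 30 °C (-2.57 ± 0.51).

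Cytosolic ribosomal protein genes rose in 31 of 81 cases with a median change of 0.63, and this count depended on how bright genes were scaled. These genes sit at the top of the signal range, with a median log2 signal of 11.2 and 77 members lying in the brightest of 10 equal bands of genes. In that band the median change of all 566 genes was 0.37, against -0.13 in the dimmest band. After quantile normalization, which removes such a trend, the medians of these bands were 0.07 and 0.05, and 6 ribosomal protein genes rose with a median of 0.27. Without 1 array 5, 18, 2 and 20 rose. RPS22B gave 2663.2 and 2105.9 at 12 °C, against 664.1 and 911.6 at 30 °C (1.61 ± 0.25, adjusted p = 0.00118) and RPS22A, its paralog, gave 10441.1 and 9088 at 12 °C, against 3807.5 and 5044.6 at 30 °C (1.15 ± 0.22), and both passed in all alternatives (1.37 and 0.63 after quantile normalization). The assembly factors, at a median log2 signal of 6.96, gave 25 rises and a median of 0.69 after quantile normalization. Of 65 mitochondrial ribosomal protein genes 6 rose and 3 fell, among the rises MRPS16, which passed in every alternative (1719.7 and 1391 at 12 °C, against 710.5 and 805.7 at 30 °C, 1.03 ± 0.21).

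**Figure D4:**
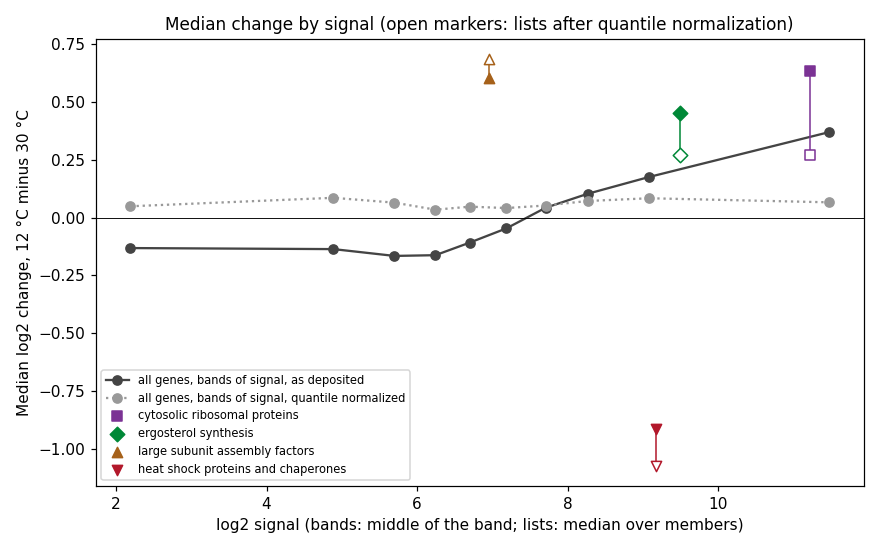
Median log2 change, 12 °C minus 30 °C, against log2 signal: lines join 10 bands of genes ranked by mean signal, as deposited (solid) and after quantile normalization (dotted), and markers are the medians of 4 lists, filled as deposited and open after quantile normalization. The solid line climbs to 0.37 in the brightest band, and the ribosomal protein median drops to 0.27 from 0.63 after quantile normalization while that of the large subunit assembly factors is 0.69 against 0.60.

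Genes of phospholipid synthesis rose in part. Of 31 genes 8 rose and 2 fell (7 rises and no fall after quantile normalization, 5, 4, 6 and 4 rises without 1 array). CHO1, which makes phosphatidylserine, gave 1703.4 and 1218.4 at 12 °C, against 420.3 and 452.9 at 30 °C (1.72 ± 0.31, adjusted p = 0.00287). The inositol carrier gene ITR1 gave 3510.8 and 3339.8 at 12 °C, against 1183.3 and 946.2 at 30 °C (1.69 ± 0.33). PSD1, the mitochondrial phosphatidylserine decarboxylase, gave 487.8 and 476.6 at 12 °C, against 194.7 and 172.1 at 30 °C (1.40 ± 0.29). INO1, which makes inositol phosphate, rose with them (752.3 and 983 at 12 °C, against 356.7 and 306.5 at 30 °C, 1.38 ± 0.34) and passed in 11 of 13 alternatives (1.19 without SS_12 replicate 2, 1.27 without SS_30 replicate 2). All 4 are known targets of the activators INO2 and INO4. INO2 itself gave 36 and 31.6 at 12 °C, against 91.8 and 155.1 at 30 °C (-1.82 ± 0.50), the opposite direction, and passed in 9 of 13 alternatives (-1.92 without SS_12 replicate 1, -1.73 without SS_12 replicate 2, -1.45 without SS_30 replicate 2), while INO4 (-0.52) and the repressor OPI1 (0.10) did not pass.

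Of 18 genes of fatty acid synthesis and desaturation 5 rose and 4 fell, with 2, 3, 2 and 3 rises and 0, 4, 0 and 2 falls without 1 array. OLE1, the only fatty acid desaturase of this yeast, gave 4601.4 and 4242.8 at 12 °C, against 4269.8 and 4381.8 at 30 °C (0.03 ± 0.19, adjusted p = 0.933), with overlapping arrays. Its activator gene MGA2 fell (37.3 and 53 at 12 °C, against 119.7 and 110.5 at 30 °C, -1.37 ± 0.32) and passed in 11 of 13 alternatives (-1.12 without SS_12 replicate 1, -1.31 without SS_30 replicate 1). The acyl-CoA synthetase gene FAA1 gave 159.7 and 111 at 12 °C, against 32.8 and 13.8 at 30 °C (2.65 ± 0.66) and passed in 11 of 13 alternatives (2.38 without SS_12 replicate 1, 2.02 without SS_30 replicate 2). The synthase genes FAS1 (0.08) and FAS2 (0.20) did not pass. Of 26 ergosterol genes 6 rose and none fell, but 0 passed after quantile normalization and 0, 3, 0 and 2 rose without 1 array. These genes, too, are bright, with 12 of them in the brightest band. SUT1, which promotes sterol uptake without oxygen, gave 36.8 and 53.3 at 12 °C, against 544.7 and 819.3 at 30 °C (-3.91 ± 0.29, adjusted p = 4.98e-06), while the sterol importers AUS1 (-0.51) and PDR11 (-0.95) did not pass.

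Genes for the enzymes that attach mannose to cell wall and secreted proteins rose in part. Of 21 mannosyltransferase genes 6 rose and 1, KTR2, fell (4, 4, 5 and 3 rises without 1 array). MNN1, which caps mannose chains in the Golgi, gave 822.6 and 585.3 at 12 °C, against 192.2 and 143.3 at 30 °C (2.06 ± 0.32, adjusted p = 0.00105). PMT4, which attaches the first mannose to proteins, gave 803.1 and 875 at 12 °C, against 240.9 and 206.8 at 30 °C (1.91 ± 0.30, adjusted p = 0.00118). KTR1, a relative of KTR2, gave 1477 and 1291.2 at 12 °C, against 617.9 and 698.7 at 30 °C (1.07 ± 0.20). KTR1 and KTR2 therefore went opposite ways. Among 37 wall proteins and enzymes 6 rose and 6 fell, 4 and 6 after quantile normalization, and 2 and 2 in the fit of only the 4 steady-state arrays. The glucan-remodelling gene GAS5 rose (1482.6 and 1595.2 at 12 °C, against 499.3 and 578.6 at 30 °C, 1.52 ± 0.18) and EGT2, for separation of daughter cells, fell (260 and 295.2 at 12 °C, against 593.7 and 576.3 at 30 °C, -1.08 ± 0.20). The flocculin gene FLO11, for adhesion and biofilm, gave 121.7 and 179.2 at 12 °C, against 1234.4 and 919.3 at 30 °C (-2.85 ± 0.33, adjusted p = 1.33e-04).

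Of 9 TIR, TIP1 and DAN mannoprotein genes, induced by cold or lack of oxygen, 2 rose and 1 fell, 2 and 4 after quantile normalization. The fall was that of DAN4 (-1.08), which passed in 10 of 13 alternatives (-0.68 without SS_12 replicate 1, -0.996 without SS_30 replicate 1). TIR2 rose (2594.1 and 4300.8 at 12 °C, against 952.5 and 1131.9 at 30 °C, 1.69 ± 0.25, adjusted p = 8.11e-04), the arrays at 12 °C being apart from each other but both above those at 30 °C. TIP1 (4027.4 and 6246.1 at 12 °C, against 7452.2 and 8071.3 at 30 °C, -0.63 ± 0.27), TIR1 (0.65), TIR3 (-1.0) and TIR4 (-0.59) did not pass. Of 10 seripauperin genes, whose sequences are so similar that the member measured is uncertain, 6 fell and none rose (4, 6, 6 and 4 without 1 array), with PAU15 at 96.8 and 141.5 at 12 °C, against 293.9 and 429 at 30 °C (-1.60 ± 0.27) and PAU17 at 97.4 and 133.8 at 12 °C, against 282.2 and 425.9 at 30 °C (-1.60 ± 0.28). Over 21 genes known from abrupt shifts to low temperature, 6 rose and 3 fell (4, 4, 3 and 3 rises and 1, 3, 1 and 2 falls without 1 array). NSR1, a nucleolar protein known to be induced by cold, rose (576.4 and 708.5 at 12 °C, against 223.1 and 293.7 at 30 °C, 1.32 ± 0.27) and passed in 12 of 13 alternatives (1.12 without SS_30 replicate 1). The small heat shock protein HSP26, induced late in such shifts, fell (175.8 and 200.9 at 12 °C, against 2521.9 and 2824.9 at 30 °C, -3.83 ± 0.23).

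Genes of mating rose in part. Of 38 genes of the pheromone response and mating type 10 rose and 3 fell (6, 9, 6 and 7 rises without 1 array). MF(ALPHA)1, the main alpha-factor gene, which a MATa cell normally keeps silent, gave 2649.4 and 2623.4 at 12 °C, against 192.3 and 279.5 at 30 °C and rose 11.4-fold (adjusted p = 2.94e-06). MF(ALPHA)2 was at least 2.56-fold higher. FIG1, which acts in membrane fusion of mating cells, gave 849.9 and 558.5 at 12 °C, against 140 and 152.5 at 30 °C (2.24 ± 0.24, adjusted p = 8.38e-05), and ASG7, an a-specific gene, gave 208.5 and 206 at 12 °C, against 66.2 and 52 at 30 °C (1.82 ± 0.36). PRM5, whose transcription also follows cell wall stress, fell (100.1 and 67 at 12 °C, against 540 and 554.3 at 30 °C, -2.74 ± 0.27). The pheromone-induced genes FUS1 (-0.09) and AGA1 (0.10) and the activator STE12 (-0.15) did not pass, nor did the remaining alpha-specific genes STE3 (0.51) and SAG1 (-0.20). STE2 rose (0.76 ± 0.23) but passed in 8 of 13 alternatives (0.63 after quantile normalization, and 0.56 without SS_12 replicate 1, 0.67 without SS_30 replicate 1, 0.85 without SS_30 replicate 2).

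Of 23 cyclins and cell cycle regulators 3 rose, CLB1 among them, and 4 fell, with 1, 1, 2 and 1 rises and 1, 3, 2 and 2 falls without 1 array. The G1 cyclins CLN1 (-0.10), CLN2 (-0.06) and CLN3 (0.12) did not pass. CLB2, the partner of CLB1 in mitosis, gave 105.4 and 77.6 at 12 °C, against 46.9 and 21.6 at 30 °C (1.51 ± 0.44) and passed in 8 of 13 alternatives (1.29 without SS_12 replicate 1, 1.73 without SS_12 replicate 2, 0.95 without SS_30 replicate 2). PCL9, a G1 cyclin of the Pho85 kinase, fell (48.4 and 54.4 at 12 °C, against 101.2 and 112.8 at 30 °C, -1.06 ± 0.21). None of 4 histone genes passed. Of 15 genes of meiosis and sporulation 3 rose and 4 fell, but 11 of them were above background in either group, and 1 rose and 2 fell with a floor of 12. Without 1 array 1, 3, 2 and 1 rose and 2, 3, 2 and 2 fell. The falls include DMC1, which passed in 8 of 13 alternatives and has another probe set called higher. Its change was -0.79 with a floor of 12, -1.81 without SS_12 replicate 1, -1.965 without SS_12 replicate 2 and -0.82 without SS_30 replicate 1. SPS100, a spore wall gene, was above background on all 4 arrays and fell (21.2 and 34.8 at 12 °C, against 198.1 and 188.4 at 30 °C, -2.83 ± 0.30, adjusted p = 6.8e-05).

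Calls among amino acid synthesis genes depended on single arrays, as did those over all genes. Over all genes, falls outnumbered rises whichever of the 4 arrays was left out. Of 61 amino acid synthesis genes 12 rose and 4 fell, 8 and 6 after quantile normalization, and 3, 4, 2 and 7 rose and 2, 8, 2 and 2 fell without 1 array, so that falls outnumbered rises without SS_12 replicate 2. The glutamate dehydrogenase gene GDH3 gave 96.4 and 124.9 at 12 °C, against 640.3 and 808.4 at 30 °C (-2.71 ± 0.23, adjusted p = 1.24e-05). BAT2, the cytosolic aminotransferase of branched-chain amino acids, gave 115.4 and 134.3 at 12 °C, against 492 and 523.3 at 30 °C (-2.03 ± 0.29), whereas the mitochondrial BAT1 (1089.3 and 1450.2 at 12 °C, against 609.8 and 682.5 at 30 °C, 0.96 ± 0.29) had the opposite direction and passed in 7 of 13 alternatives (0.81 after quantile normalization, and 1.17 without SS_12 replicate 1, 0.76 without SS_12 replicate 2, 0.88 without SS_30 replicate 1, 1.04 without SS_30 replicate 2). GCN4, the activator of amino acid synthesis, did not pass (-0.03). In nucleotide synthesis IMD2, an inosine monophosphate dehydrogenase with close relatives, rose (3626 and 3954.3 at 12 °C, against 1241.2 and 1311.7 at 30 °C, 1.57 ± 0.30), as did the CTP synthase gene URA7 (611.8 and 623.9 at 12 °C, against 269.6 and 251.3 at 30 °C, 1.25 ± 0.25).

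Of 15 genes for esters, the fruity aroma compounds of beer and wine, and for fusel alcohols, 4 rose and 2 fell. That is 26.7% higher and 13.3% lower, against 9.97% and 12.2% of all genes. Those that make esters included 2 rises that passed in all alternatives. ATF2, an alcohol acetyltransferase, gave 848.2 and 940.4 at 12 °C, against 280.5 and 221 at 30 °C (1.84 ± 0.31, adjusted p = 0.0019), and EEB1, which makes ethyl esters of fatty acids, gave 914.4 and 737.8 at 12 °C, against 275.6 and 309.2 at 30 °C (1.49 ± 0.29, adjusted p = 0.0041). The arrays of both temperatures were apart for each. ATF1 (0.33), the main acetate ester enzyme, and EHT1 (-0.26), the paralog of EEB1, did not pass. Of 13 invertase, maltose and galactose genes 1 rose, IMA5, and 4 fell. Among the falls was the maltose permease gene MAL31 (279.4 and 266 at 12 °C, against 887.9 and 670.1 at 30 °C, -1.50 ± 0.26). The invertase gene SUC2 did not pass (1698.1 and 1850.8 at 12 °C, against 1668.7 and 1748.8 at 30 °C). PAI3, an inhibitor of the vacuolar protease PEP4, fell (69.8 and 70.2 at 12 °C, against 360 and 389.1 at 30 °C, -2.42 ± 0.21, adjusted p = 1.83e-05).

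Surface and scavenging genes added a few changes. Of 10 genes of eisosomes and the SUR7 family, which shape furrows of the plasma membrane, 3 fell and 1 rose. Next to FMP45, PUN1 gave 358 and 531.5 at 12 °C, against 1083 and 1268.2 at 30 °C (-1.43 ± 0.25) and YNL194C gave 4.2 and 19.8 at 12 °C, against 105.8 and 90.3 at 30 °C (-3.42 ± 0.54). Its mean at 12 °C was below the background signal, and a floor of 12 gave -2.67. SUR7 itself gave 1387.3 and 1495.4 at 12 °C, against 590.6 and 776.3 at 30 °C (1.09 ± 0.31, passing in 9 of 13 alternatives, with 1.14 without SS_12 replicate 1, 1.03 without SS_12 replicate 2, 0.89 without SS_30 replicate 1, 1.29 without SS_30 replicate 2). SUR7 and its stress-related relatives thus had opposite directions. Of 26 antioxidant genes 3 fell and 2 rose, the falls including the mitochondrial superoxide dismutase gene SOD2 (304.2 and 453.7 at 12 °C, against 867.5 and 919.2 at 30 °C, -1.27 ± 0.21) and the peroxisomal catalase gene CTA1 (-1.39 ± 0.22). The cytosolic superoxide dismutase gene SOD1 did not pass (-0.47). Of 12 zinc-responsive genes 3 rose and 1 fell, 1 and 1 after quantile normalization, and 0 and 1 in the fit of only the 4 steady-state arrays. The fall was that of IZH4 (262.4 and 300.7 at 12 °C, against 862.3 and 915.9 at 30 °C, -1.66 ± 0.24). Among the 34 proteasome genes 1 rose and 1 fell, and among 28 genes of DNA replication and cohesion 3 fell and none rose. The falls in replication, of MCM7 (-0.99), MCM5 (-0.97) and MCM2 (-0.91), passed in 9, 10 and 9 of 13 alternatives.

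**Figure D5:**
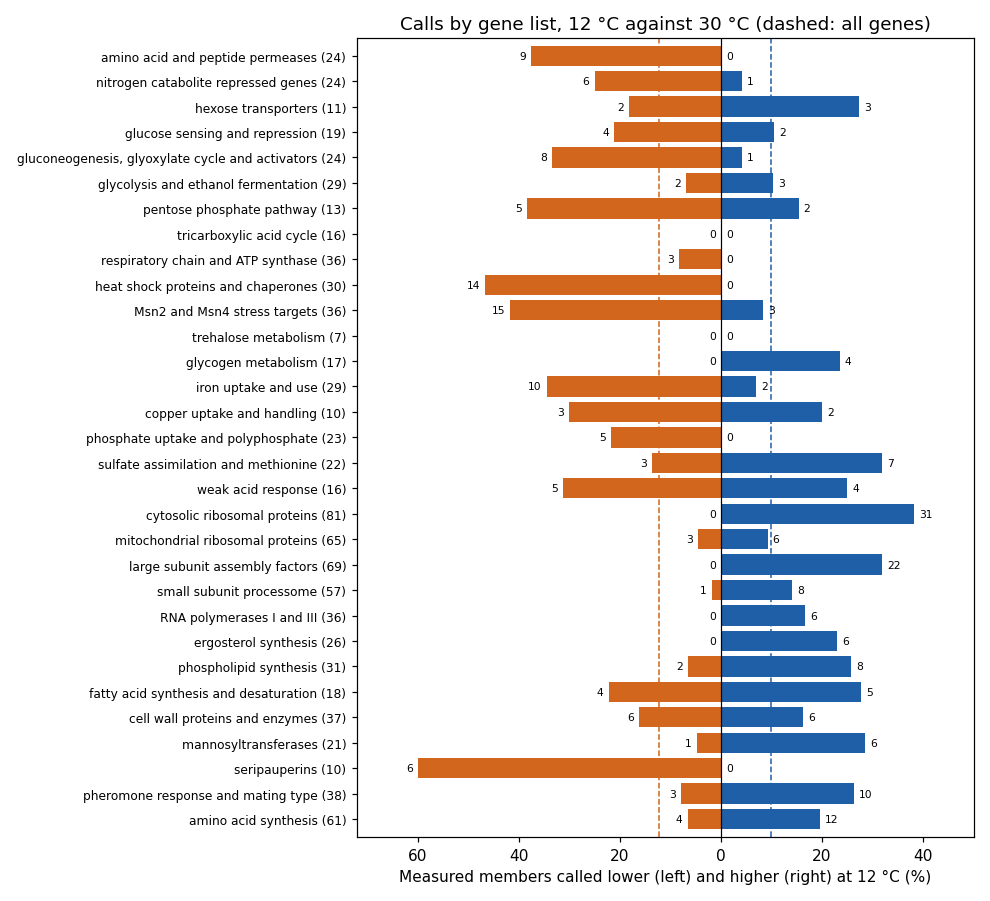
Share of the measured members of each list called lower (orange, left) and higher (blue, right) at 12 °C, in percent, with the number of measured members in brackets and the number called at the end of each bar. Dashed lines are the shares over all 5656 genes, 12.2% lower and 9.97% higher. Chaperones, Msn2 and Msn4 targets, permeases and seripauperins extend to the left, and ribosomal proteins and large subunit assembly factors to the right.

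For the 24 largest changes the temperature effect at steady state was set against that between the 12 and 30 °C samples of the cycle, whose arrays are separate from those at steady state. Over all genes 12.9% differed between both effects (adjusted p under 0.05 for the difference). HXT4, PDR12, EFM6 and MF(ALPHA)1 did not pass this test, with differences of 1.21 ± 0.55, 0.53 ± 0.41, 0.23 ± 0.46 and 0.44 ± 0.34 and cycle changes of 3.68, 3.66, 4.01 and 3.06. KTR2 changed by -4.30 at steady state, against 1.45 in the cycle, where it did not pass (difference -5.75 ± 0.80, adjusted p = 0.00125). FUI1, HXT5, HMS2, MUP1 and DIP5 fell further at steady state than in the cycle, with differences of -4.69 ± 0.31, -3.98 ± 0.47, -4.07 ± 0.50, -3.15 ± 0.53 and -3.11 ± 0.64. As KTR2, DIP5, FUI1, HXT5 and HMS2 had means under background at 12 °C, the sizes of these differences are uncertain. The genes were picked for their steady-state changes, which also enter the difference, so a larger effect at steady state is favoured by the choice.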

How the data were processed

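RNA of each culture was hybridised to 1 Affymetrix array. The deposited intensity values, 1 per probe set and array on a linear scale, were used as they stand. RMA is named per the submitters' processing notes, yet the deposited intensity values reach 0 and share a 2% trimmed mean of about 240.2 on every array, so how they were made is not known. Depth has no meaning for arrays, and their number, 2 a group, limits the precision.

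Probe sets were paired with genes through the platform annotation, and those with several genes (328), none (2443) or control sequences (60) were left out. A gene with more than 1 probe set was represented by the brightest over the 16 arrays of the fit, cycle arrays included. Of the resulting 5656 genes 315 had such a choice. For 6 of these, namely MDV1, YDR034C-A, BPH1, DMC1, YBR090C and YMR230W-A, probe sets were called in opposite directions. Values were floored at 1 and put on the log2 scale. Background, a signal of 10.5, was the 95th percentile of the control probe sets expected to be dark, by their mean over the same 16 arrays. A fold against a group with no array above background is a bound.

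Means of 8 groups were fitted to 16 arrays with limma 3.58.1 in R 4.3.3, without a block (8 residual degrees of freedom), after a check on simulated data. The extra array at 27.4 °C was left out. Tests were two-sided and adjusted by Benjamini and Hochberg over all genes at 0.05. Named genes were the 12 largest rises and 12 largest falls among protein-coding genes without overlap and above background in the brighter group, from each gene list at most 4 members that rose and 4 that fell, and members of lists of 40 genes or fewer that did not pass. Genes named after their values were seen are marked as such. Members and lists were chosen with earlier results of these data known. The alternatives were quantile normalization, centring, a floor of 12, a filter on background, every probe set tested, only the 4 steady-state arrays, the extra array kept, a trended and robust prior, a replicate block and leaving out each of the 4 arrays.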

Additional observations from a re-analysis of the deposited data

Results flagged for a closer look

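For 14 of the 24 genes with the largest changes, against 12.9% of all genes, the temperature effect at steady state differed from that between the 12 and 30 °C samples of the cycle, tested as a difference of both effects in limma. The 24 genes were picked for their steady-state changes, which also enter this difference, so a larger effect at steady state is favoured by the choice and the count is no independent evidence. Of the genes that rose at steady state, the difference was 3.28 for the isomaltase gene IMA5 (adjusted p = 0.00173), 2.53 for SPR2 (adjusted p = 0.00715), 2.03 for YCR099C (adjusted p = 0.0487) and 1.87 for YGR035C (adjusted p = 0.029), each higher at steady state. IMA5, under background at 30 °C at steady state, changed by 2.92 there, against -0.36 in the cycle, where it did not pass. For YMR230W-A the difference was -2.17 (adjusted p = 0.0053), its rise in the cycle being 5.86, against 3.70 at steady state, from signals near 0. The genes IMA5, SPR2 and YCR099C lay under background on both arrays at 30 °C, so their differences have no exact size. With a floor of 12 they were 1.98 for IMA5, 1.16 for SPR2, which no longer passed (adjusted p = 0.0533), and 1.09 for YCR099C.

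Among the genes that fell at steady state, the difference was -5.75 for KTR2 (adjusted p = 0.00125), -4.69 for FUI1 (adjusted p = 2.32e-05), -4.07 for HMS2 (adjusted p = 8.37e-04) and -3.98 for HXT5 (adjusted p = 7.82e-04). The methionine permease MUP1 differed by -3.15 (adjusted p = 0.0035), DIP5 by -3.11 (adjusted p = 0.00929), GRE1 by -2.74 (adjusted p = 0.00124), FMP45 by -2.17 (adjusted p = 0.00889) and BAP3 by -2.07 (adjusted p = 0.0148). All but KTR2 also fell in the cycle, by a log2 change of -1.92 for FUI1, -1.04 for HMS2, -2.0 for HXT5, -1.20 for MUP1, -3.74 for DIP5, -3.04 for GRE1, -2.42 for FMP45 and -2.46 for BAP3. KTR2, FUI1, HMS2, HXT5 and DIP5 had means under background at 12 °C, and with a floor of 12 their differences were -4.59, -1.64, -1.97, -3.61 and -2.79. With groups of 2 arrays no single array could be tested as an outlier.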

How the results depend on the processing

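Across 277 named genes and 13 alternatives, 2999 of 3594 values kept their direction and their call, 595 no longer passed and none took the opposite sign, but RSB1 and SPO11 had a change of 0, and so no direction, with a floor of 12. As the arrays of every called gene were without overlap, leaving out 1 array or raising the floor could not turn a sign. Apart from quantile normalization and centring, the other settings left the change itself as it was. The absence of opposite signs is therefore a weak check. In every alternative that tested them, 122 named genes passed. Genes called higher, 564 as reported, numbered 271 in the fit of only the 4 steady-state arrays, with 636 of all 1256 calls shared, and 215 to 374 without 1 array. Genes called lower, 692 as reported, numbered 414 in that fit, 1072 with every probe set tested (9275 tests) and 350 to 580 without 1 array. Genes with a difference between constant and cycling cultures, 729 as reported, numbered 410 to 633 without 1 array, and that test could not be fitted with only the 4 steady-state arrays. Both smaller fits have fewer arrays behind the spread. With the replicate block 561 genes were higher, 702 lower and 725 differed. The labels call the cultures independent, and same-numbered arrays of SS_12 and SS_30 deviated together by a correlation of 0.045 only. For these 4 arrays the numbers show no pairing. The cycle arrays, which also enter the spread, were not checked in this way. The difference between constant and cycling cultures of EFM6, 0.23 as reported, became -0.32 with a floor of 12 and ran between -0.36 and 0.82 without 1 array, and that of YKL107W, 0.86 as reported, became -0.73 with a floor of 12. The cause was not tested, and none of these passed. No call was turned round under any alternative, but each gene was followed by its brightest probe set throughout, also with every probe set tested. The other probe sets of a gene did not enter this comparison, and those of DMC1 and YMR230W-A include calls in the opposite direction. Quantile normalization, which removed the rise of the median change with signal, gave 545 higher and 578 lower genes, 995 of the calls shared. Sizes of genes under background in 1 group, 98 at 12 °C only and 47 at 30 °C only, are bounds at best.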
